A study of Mus musculus with 74 samples.

Results

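Zfp738 is a KRAB zinc finger protein (KRAB-ZFP), and its binding was mapped by chromatin immunoprecipitation and sequencing (ChIP-seq) in F9 embryonal carcinoma (EC) cells, a mouse teratocarcinoma line that resembles early embryonic cells. The peaks described here are the rows of the deposited peak table that carry the name Zfp738, and there were 176 of them among 53255 rows in all. They came from 1 sample with no replicate, in which the F9 EC cells overexpressed Zfp738 with a C-terminal 3XHA epitope tag (C-3XHA) and chromatin fixed in 1% formaldehyde was precipitated with the HA antibody ab9110. In comparison stood 12507 peaks of the 29 other F9 samples that were called against the same kind of HA control, each of which overexpressed a different tagged protein, 22 as C-3XHA and 7 as N-3XHA. The labels name 1 further sample of this kind, Zfp94, which was not analysed here because no rows used here carry its name. All 30 samples therefore shared the cell line, the antibody and the control, and none represented an unmodified cell with the protein at its own level. The study introduced the genes with Sleeping Beauty or lentiviral vectors and pooled the clones that resisted puromycin, so the level of each protein was that of its vector. Total read depth could not be read from the peak table. A peak table holds no marker genes, so the labelled cell line was not checked.

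KRAB-ZFPs are the largest family of transcription factors in mammals. Their zinc fingers read DNA, and the KRAB domain recruits KAP1 (Trim28), which in turn brings the histone methyltransferase SETDB1 and leads to H3K9me3 and silencing, often at transposable elements. The Zfp738 gene itself lies on the minus strand of chromosome 13, from 67768374 to 67788008 in build mm9, within a cluster of related KRAB-ZFP genes.

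Among the features searched, the one that most often recurred under Zfp738 peaks was a short tandem repeat. Tandem repeats were searched for 5-base units only, and no repeat annotation was used. In the deposited table each peak is a window of 200 bp centred on its summit. Of the 176 windows, 26 (14.8%, 95% Wilson interval 10.3 to 20.8%, which covers counting error only) overlapped a perfect array of the 5-base unit AGAGC, read on either strand and in any frame and at least 25 bases long. To show this repeat, 1 window follows, with the array in capitals and the mm9 plus strand written 5′ to 3′. It lies in an intron of the potassium channel gene Kcnt2 at chr1:142448382-142448581. It was chosen after its values were seen because it held a single array of 100 bases and none of another 5-base unit.
Kcnt2 intron: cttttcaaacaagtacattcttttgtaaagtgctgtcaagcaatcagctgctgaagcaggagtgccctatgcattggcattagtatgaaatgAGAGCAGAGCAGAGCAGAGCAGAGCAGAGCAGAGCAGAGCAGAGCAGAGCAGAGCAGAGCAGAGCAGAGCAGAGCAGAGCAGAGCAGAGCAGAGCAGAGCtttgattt
The Kcnt2 peak had 16 tags and a fold of 28.7.

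The arrays lay at the summits. In 21 of the 26 windows the summit base itself was inside an AGAGC array, and in the others an array began at most 67 bp away. The windows held between 29 and 200 bases of AGAGC array, with a median of 75. Windows placed 1 kb to either side of the same summits held such an array in 3 of 352 cases. Of 25555 windows placed every 100 kb along mm9 none held one, which allows a share of up to 0.0117% when 3 counts are taken as the limit for a count of 0. Among the 29 other samples, 2 windows of Zfp661 (of 1065) and 2 of Zfp759 (of 816) held an AGAGC array and no window of the other proteins did. The unit AGAGC was named because it was the one most often overlapped by these peaks, so the share among them is a description and was not tested.

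**Figure D1:**
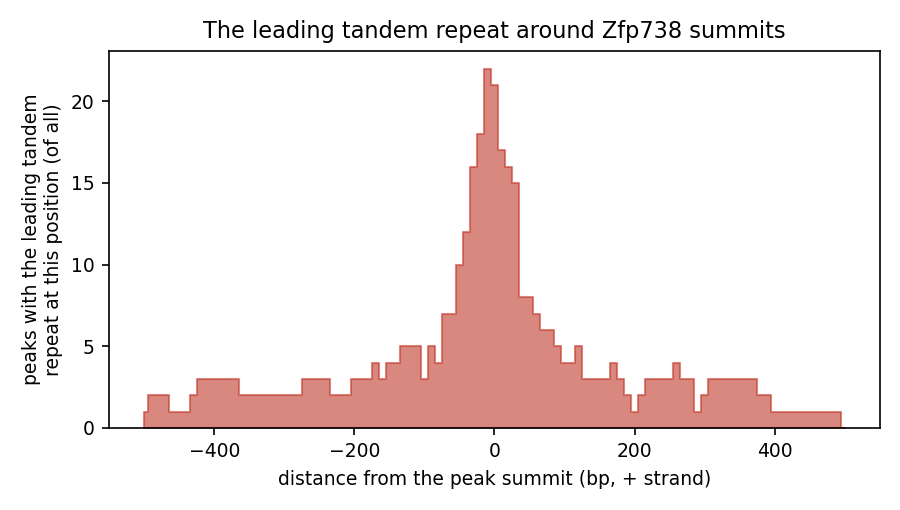
Number of Zfp738 peaks (of 176) with an AGAGC array (the leading tandem repeat) at each position from 500 bp before to 500 bp after the summit on the plus strand. The count was 21 at the summit and 22 at 10 bp before it, and was at most 5 beyond 100 bp.

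Seen from the genome, mm9 held 56474 perfect 5-base tandem arrays of at least 25 bases, and 79 of these (0.14%) overlapped a Zfp738 window. Of the 190 AGAGC arrays, 40 did (21.1%, interval 15.9 to 27.4%), while 6 overlapped a window of any other of the 29 proteins. The unit ACAGC gave another order by this count, which sets 1 sample against 29 pooled. Of 595 ACAGC arrays, 21 (3.53%) overlapped a Zfp738 window and 96 (16.1%) a window of the other proteins. Counted by windows, 11 of 176 Zfp738 windows held an ACAGC array. Among the other proteins, 40 of 1065 Zfp661 windows, 2 of 254 Zfp429 windows and 1 of 1812 Zfp457 windows held one. No window of the remaining proteins did. The unit AAAGC had 7 of 493 arrays under Zfp738 (1.42%) and 0 under the others. The unit AGGGC had 3 of 191 arrays under Zfp738 (1.57%) and 3 under the others. The units AAGAG and AGAGG, although far more common, were rarely covered, with 3 of 4951 and 2 of 4479 arrays under Zfp738. The unit AAAAC with 17493 arrays had none under Zfp738. Some covered arrays of other units lay in windows that also held AGAGC, as near Cadm2 and Gm9387, and are not separate peaks. Here and below, a peak near a gene is one whose nearest transcript start was that of the gene, at any distance. That distance could be long, as with 31351 bp for the peak near Batf3. In all, 40 Zfp738 windows (22.7%) held some 5-base array, 26 of them AGAGC and 14 another unit only. In the other samples this share ran from 0 to 4.23%, which was the share of Zfp661 with 45 of 1065 windows.

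Several arrays often stood side by side, so arrays of 1 unit within 500 bp were also joined into loci. The 190 AGAGC arrays formed 151 loci, of which 23 (15.2%, interval 10.4 to 21.8%) held a Zfp738 window and 4 a window of another protein. The share was higher in loci with more repeat. It was 4.23% for 71 loci with under 50 bases of array (interval 1.45 to 11.7%) and 19.7% for 66 loci with 50 to 99 bases (11.9 to 30.8%). For 14 loci with 100 bases or more it was 50% (26.8 to 73.2%). A locus counted when any of its arrays overlapped a window, so loci with more array offered more sequence to overlap. The intervals cover counting error only, and the order of the shares was not tested. The length of a single array gave no such order. Arrays of 25 to 29 bases were covered in 21.3% of 47 cases and those of 60 bases or more in 22.4% of 58. These arrays were not independent, since the 40 covered arrays fell in 23 loci. A short array beside others could count as covered through their peak. The shares by single array therefore do not show whether length mattered. The tags of such loci come from repeated sequence, and the labels give no limit on reads with several placements. Of the 26 AGAGC windows, 13 were multi-copy, meaning a median of at least 10 mm9 copies of their 24-base words. The study placed reads with equally good matches at random on 1 of them. Reads at any of these 13 windows may therefore come from another locus. Within any locus, which copy carried the protein cannot be told apart.

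**Figure D2:**
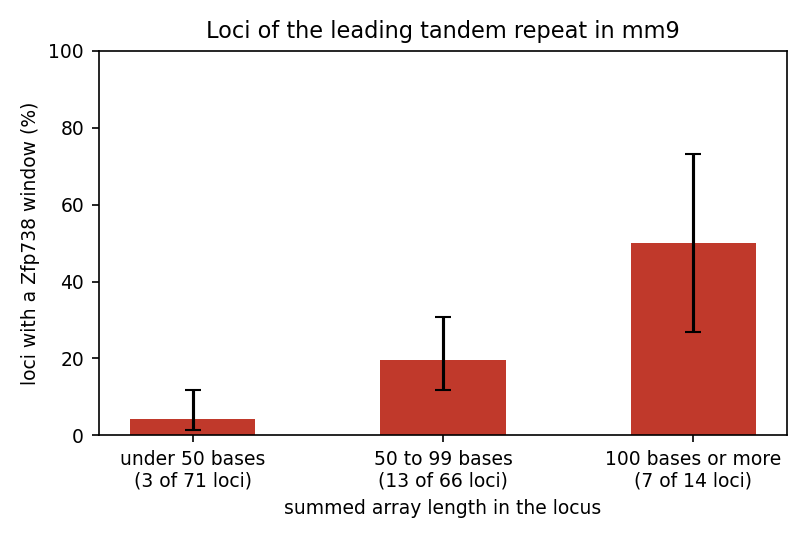
Share of AGAGC loci (the leading tandem repeat; arrays within 500 bp joined) that held a Zfp738 window, by the summed length of the arrays in the locus. Bars give the share in percent and lines the 95% Wilson interval; 3 of 71, 13 of 66 and 7 of 14 loci held a window.

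The peaks on AGAGC arrays ranged over nearly the whole scale of signal. Fold enrichment in the table is the tag pile-up at the summit over the control, and the tag count is the number of reads in the called region. The 26 array peaks had folds from 22.3 to 169 with a median of 35.03 and tag counts from 11 to 171 with a median of 20.5. The 142 peaks outside both these arrays and ETn elements had a median fold of 31.8 and a median of 24 tags. Of the 10 highest folds 3 were array peaks, and among these the peak near Parp11 had 51 tags with a fold of 95.5 and the intergenic peak with its nearest start in Cadm2 had 26 tags with a fold of 73.2. In the genome, 2 places held more than 1 of them. On chromosome 3, 3 intergenic array peaks lay within 2 kb of each other, with 83, 26 and 15 tags. Their nearest start was that of Vmn2r2, a vomeronasal receptor gene, and none of the 3 lay within 10 kb of it. On chromosome 15, 2 array peaks lay side by side with 63 and 30 tags. The widest called region of all 176, 816 bp with 112 tags, was an array peak in an intron of Ppp4r4, a regulatory subunit of a protein phosphatase. Of the 26 array peaks 18 were intergenic and 8 in introns.

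Zfp738 peaks without a tandem array reached the same height. The second highest fold, 160 with 142 tags, lay in intergenic sequence of chromosome 13 from 98067060 to 98067259. The highest tag count, 190 with a fold of 92.6, lay under 1 kb upstream of Sos1, the guanine nucleotide exchange factor that activates Ras. The remaining peaks among the 10 highest folds were intergenic near Tulp1 (fold 89.2, 67 tags), in the coding exon of Creb3l1 (89.2, 66 tags), near 1700024J04Rik (86.0, 86 tags), 50 bp upstream of 3110043O21Rik (73.8, 77 tags), and in intergenic sequence with its nearest start in Tbl1xr1 (73.2, 58 tags). Creb3l1 encodes a transcription factor held in the endoplasmic reticulum membrane, and its peak was the only 1 of 176 with its summit in a coding exon. Of the 10 peaks with the most tags, 4 were also among the 10 highest folds. The others lay in introns of Ccdc85c (129 tags, fold 44.7), Npepps (127 tags, 45.4), Ppp4r4 (112 tags, 48.4) and Cnot2 (86 tags, 62.2), near Gm15055 (114 tags, 65.1) and near Vmn2r2 (83 tags, 35.03).

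**Figure D3:**
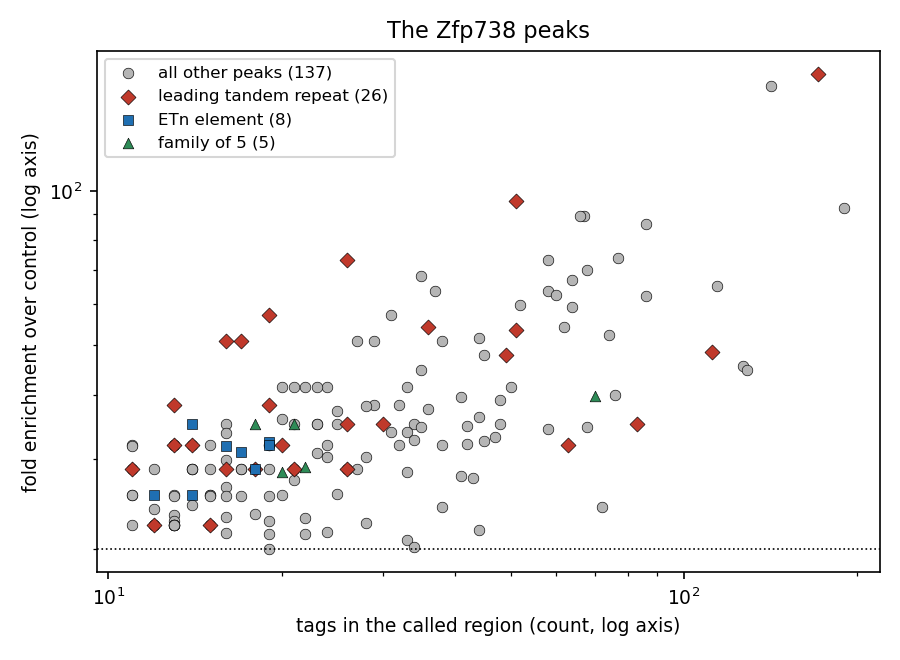
Tags in the called region against fold enrichment for the 176 Zfp738 peaks, both on log axes, with the AGAGC array peaks (leading tandem repeat), the ETn peaks and the family of 5 marked. The dotted line is the fold of 20 that the labels give as the minimum; array peaks spread from 22.3 to 169, and ETn peaks stayed between 25.5 and 35.03.

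The folds carried a coarse scale that limits how finely peaks can be ranked. Across the 176 peaks there were 92 distinct folds, and 17 peaks shared the value 28.66 and 15 the value 31.84. These are whole multiples of 3.18, and 99 peaks lay within 0.03 of such a multiple, including the highest. Neighbours in the order of folds therefore often had the same value. The median fold was 31.8, the lowest 20, and 30 peaks had folds of 25 or less. The false discovery rate in the table, a percentage from the peak caller, had a median of 2.16% but was over 10% for 3 peaks, which were the 3 with the most tags (33.3%, 50% and 14.3%). That rate was thus highest for the peaks with the most tags.

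Similarity between the windows was then measured directly by comparing each with every other (blastn, e-value of 1e-05 over at least 50 bases). In this way 62 windows fell into 4 families and 114 into none. The largest family held 41 windows joined by 5-base repeats, 39 of them with an array and 26 with AGAGC. The other families held 8, 8 and 5 windows.

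The family of 5 was not made of a simple repeat or of recent copies. Its windows were found once in mm9 by the median copy number of their 24-base words, yet all 5 shared an identical stretch of 21 bases within otherwise diverged sequence. That stretch occurs 74 times in mm9, and 5 of these copies lay within 250 bp of a Zfp738 summit. The shared stretch is shown in capitals with 30 bases on each side, all oriented alike. The windows lay in an intron of Cnot1, a scaffold of the CCR4-NOT deadenylase (chr8:98303693-98303773, plus strand), near Batf3 (chr1:192953629-192953709, minus strand), in an intron of Rad51l1, a recombination repair gene (chr12:80435411-80435491, minus strand), near Coq10b (chr1:55098271-55098351, plus strand) and near Kbtbd12 (chr6:88588179-88588259, minus strand).
Cnot1 intron: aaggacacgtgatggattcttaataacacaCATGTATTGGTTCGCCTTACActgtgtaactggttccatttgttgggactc
Batf3 region: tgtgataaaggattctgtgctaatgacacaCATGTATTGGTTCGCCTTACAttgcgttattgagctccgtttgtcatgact
Rad51l1 intron: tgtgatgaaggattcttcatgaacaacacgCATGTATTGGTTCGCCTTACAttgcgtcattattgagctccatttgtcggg
Coq10b region: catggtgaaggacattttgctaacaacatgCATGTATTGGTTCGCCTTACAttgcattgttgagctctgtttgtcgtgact
Kbtbd12 region: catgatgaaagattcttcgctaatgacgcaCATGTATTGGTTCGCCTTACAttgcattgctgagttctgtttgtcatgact
The Cnot1 peak had 70 tags and a fold of 39.7. The Batf3, Rad51l1, Coq10b and Kbtbd12 peaks had 21, 18, 22 and 20 tags and folds of 35.03, 35.03, 28.9 and 28.2. A word of 24 bases around this stretch was shared by 4 of the 5 windows, and it has 13 copies in mm9.

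A family of 8 windows lay in ETn elements, which are LTR retrotransposons that are still mobile in the mouse and are transcribed in early embryonic and EC cells. All 8 lay in intergenic sequence, on chromosomes 2 (2 peaks), 5, 6, 9, 11, 13 and X, and their 24-base words occurred at a median of 71.5 copies in mm9. They were 8 of 176 peaks (4.55%), where 2 of the 29 other samples had a higher share of peaks within 10 kb of an ETn LTR (two-sided exact permutation p = 1). Those were Rex2 (80.6%) and Zfp600 (10%), both N-3XHA. The 23 samples tagged as C-3XHA leave out both of these. Among them the share of Zfp738 was the highest, 3.35 percentage points above the mean of the other 22 (exact permutation p = 0.0435, the smallest that 23 samples allow, adjusted p = 0.478). Among the 19 samples labelled with the thresholds of Zfp738, which include Rex2 but not Zfp600, its share was below the mean of the others (-1.21 points). The tag counts of the 8 ETn peaks were 14 and 12 on chromosome 2, 18 on chromosome 5, 14 on chromosome 6, 19 on chromosome 9, 19 on chromosome 11, 17 on chromosome 13 and 16 on chromosome X. Folds ran from 25.5 to 35.03, so none of the 8 was among the strong peaks. Their position was nearly constant. Measured along the element to the next exact match of the study's LTR capture probes, the summits lay between 1188 and 1338 bp before the downstream LTR.

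Of 406 elements with an LTR match at both ends, 7 (1.72%, interval 0.838 to 3.52%) held a Zfp738 summit, 46 a Rex2 summit, 10 a Zfp600 summit and 6 a Zkscan17 summit, and no other protein of the 30 had more than 1. Zfp738 summits lay 1423 to 1657 bp from the end of the last LTR match and at least 3877 bp from the first. Rex2 summits lay at the other end of the element, 291 to 690 bp from the first LTR match, and Zfp600 summits at 302 to 524 bp. These 2 ranges did not overlap that of Zfp738. The Zkscan17 summits were scattered, from 21 to 4794 bp from the first match, and 2 of the 6 (3924 and 4794 bp) fell within the Zfp738 range by that distance, but they lay 354 and 689 bp from the end of the last match and so outside the Zfp738 range by the other. The elements are close copies of each other, so the 7 summits share their sequence and are not independent, and a read could have been placed on another copy.

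**Figure D4:**
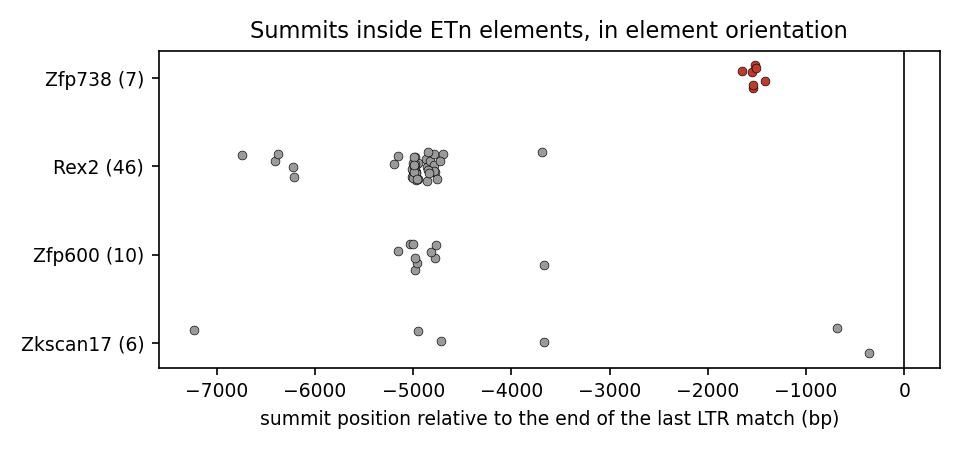
Positions of summits inside ETn elements with an LTR match at both ends, in bp before the end of the last match, for the 4 samples with a summit in at least 5 elements (1 point per summit, spread vertically for sight). The 7 Zfp738 summits sit between 1423 and 1657 bp before the end and the Rex2 summits between 3691 and 6739 bp.

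The other family of 8 windows had the highest median copy number of the 4 families. Its windows had a median copy number of 431.5, with values from 1 to 615, and 7 of the 8 shared a 24-base word that occurs 656 times in mm9. These peaks were weak, with 11 to 23 tags and folds from 22.3 to 31.8. The strongest by tags lay in intergenic sequence of chromosome 6 near Gm15487 (23 tags), and 1 lay in an intron of Dmd, the dystrophin gene (11 tags).

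In the 113 windows that were in no family and held no array, the 8-base words present in at least 4 windows were ranked by their number against the windows 1 kb away. The leading word, CTGTTTGC (or GCAAACAG on the other strand), was in 13 of these windows (11.5%, interval 6.85 to 18.7%) and in 2 of 226 windows 1 kb away (0.885%). The windows of the other samples were not filtered in this way, and over all 176 Zfp738 windows the share was 7.39% (interval 4.37 to 12.2%). The word was in 0.895% of the windows of the other 29 samples, where no protein exceeded 2.33%, and in 0.865% of the windows along mm9. It was the first of 736 words ranked, so its share here is a description without a test. Examples with the word in capitals and 30 bases on each side are from introns of Cnn3 (calponin 3, an actin-binding protein, chr3:121149595-121149662, plus strand), Tmem161b (chr13:84370214-84370281, plus strand) and Gatad2a (a subunit of the NuRD complex, chr8:72468118-72468185, minus strand), with 38, 14 and 26 tags.
Cnn3 intron: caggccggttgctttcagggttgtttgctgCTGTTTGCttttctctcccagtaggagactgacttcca
Tmem161b intron: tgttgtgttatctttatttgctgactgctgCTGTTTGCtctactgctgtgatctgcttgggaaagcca
Gatad2a intron: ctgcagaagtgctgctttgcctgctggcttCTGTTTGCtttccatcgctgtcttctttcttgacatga
Other windows with the word lay in introns of Meis2 (29 tags), Hsd17b12 (14 tags) and Necab1 (16 tags) and in an untranslated exon of Rbm14 (24 tags). For the whole set of windows, 10-base words were ranked by another rule. It took the difference in number from the windows 1 kb away, where the 8-base words were ranked by a ratio. A difference favours frequent words. The leading 10-base word was the tandem repeat itself, in 31 of 176 windows (17.6%) and 3 of 352 windows 1 kb away (0.852%).

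By place in the gencode annotation of mm9, 84 summits were intergenic (47.7%), 80 in introns (45.5%), 9 in UTRs, 2 in other exons and 1 in a coding exon. Within 1 kb of a transcript start lay 18 summits (10.2%, interval 6.57 to 15.6%), against 4.24% of the windows along mm9 and a range of 1.49 to 48.6% over the other samples (two-sided exact permutation p = 1). Of these 18, 9 lay within 100 bp of a start. None of the 18 was in multi-copy sequence, and their median fold was 29.5 with a median of 23 tags.

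The genes at these starts served varied cell functions and were not tested as a group. The strongest signals were at Sos1 (described above), at 3110043O21Rik, the mouse counterpart of C9orf72, and at Cox7a2, a subunit of cytochrome c oxidase, 93 bp upstream with 68 tags and a fold of 70.1. At Fos, the immediate-early transcription factor, the summit lay in the UTR 76 bp downstream of the start with 76 tags and a fold of 39.97. Armcx1, an X-linked gene of mitochondrial transport, had 48 tags at 141 bp upstream. Cenpc1, which encodes a centromere protein, had 44 tags at 278 bp upstream. Pxn, which encodes the focal adhesion adaptor paxillin, had 31 tags at 171 bp downstream. 5830428H23Rik had 28 tags at 17 bp downstream, Dram2 25 tags at 648 bp downstream and Ranbp3 21 tags at 267 bp upstream.

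The remaining starts had weaker peaks of 13 to 19 tags. They were the shared start region of Wdr77 and Atp5f1, which encode a partner of the arginine methyltransferase PRMT5 and a subunit of ATP synthase (15 tags), Dhodh, an enzyme of pyrimidine synthesis (16 tags), Tsen34, a subunit of the tRNA splicing endonuclease (16 tags), Mbd5, where the summit lay 25 bp upstream and in the UTR of Orc4, a subunit of the origin recognition complex (13 tags), Bphl (15 tags), 1810013L24Rik (15 tags), Zfp428 (19 tags) and Gm16918 (17 tags), of which the last was an AGAGC array peak. The other UTR summits were in Ssh2 (20 tags), Commd2 (34 tags), Arl6ip1 (38 tags) and Rbm14.

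No summit lay within 10 kb of a gene of the fixed lists. Of 22 genes of KAP1 and H3K9 silencing, 0 had a Zfp738 summit within 10 kb, and 13 had a summit of at least 1 of the other 29 proteins. The counts were 0 and 8 of 15 annotated pluripotency genes, and 0 and 17 of 64 annotated KRAB-ZFP genes of the series. The Zfp738 peaks numbered 176 and the others 12507, so these counts are not on the same footing. Of all 22380 annotated protein-coding genes, 0.652% had a Zfp738 summit within 10 kb and 25.2% a summit of another of the 29, so a count of 0 in lists of this size says nothing particular about their genes.

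Zfp738 shared few loci with the other proteins. Windows were called shared when they overlapped by at least 25% of their length. Within the 30 samples 12 of 176 Zfp738 windows (6.82%, interval 3.94 to 11.5%) were shared with another, against 24.6% of the windows of the other 29 pooled. Per sample the share ran from 0.629 to 65.2% among the 29, with a median of 26.7%, and 22 of them were higher than Zfp738. In the two-sided exact permutation test in which each of the 30 samples took the place of Zfp738, the difference from the mean of the others was 20.5 percentage points below (p = 0.467, adjusted p = 0.917 over 11 measures), which does not pass, and the values of the 29 enclosed that of Zfp738. The 29 include samples called at lower thresholds. When only the 19 samples labelled with the thresholds of Zfp738 were compared, its share was 5.11%, with a smaller difference from the mean of the others (-11.1 points).

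Over the whole table, 13 Zfp738 windows were shared with 12 of the 66 other proteins. Zfp661 shared the most, 5 windows (2.84% of the Zfp738 windows and 0.469% of the 1065 Zfp661 windows), each with an ACAGC array. In all 5 the summits lay between 16 and 88 bp apart. Tag counts in Zfp661 were 81, 232, 65, 331 and 32, where Zfp738 had 45, 22, 13, 17 and 12. In the same order, these 5 windows lay in an intron of Ksr1, in intergenic sequence of chromosome 16 and in introns of Ccdc14, Accn4 and Spata17. Zfp429 and Zfp759 shared 3 windows each (1.7% of the Zfp738 windows).

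Of the 13 windows, 4 were shared with more than 1 protein and 9 with a single one. The window shared with the most proteins lay on chromosome 8 from 8984342 to 8984541, where Arglu1 held the nearest start, and Gm13235, Zfp493, Zfp810 and Zfp882 each had a window there. Zfp738 had 43 tags at this locus, Gm13235 51, Zfp493 68, Zfp810 56 and Zfp882 35. An intron of Ahi1, a ciliary gene, on chromosome 10 was shared with Zfp429, Zfp712 and Zfp759, with summits 5 to 8 bp apart. Tag counts there were 52 for Zfp738, 71 for Zfp429, 118 for Zfp712 and 60 for Zfp759. The other loci shared with more than 1 protein were both on chromosome 16, a window with an ACAGC array (22 tags) shared with Zfp429 and Zfp661 and a window without an array (15 tags) shared with Zfp933 and Zfp935.

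As a sample, Zfp738 was within the spread of the 29 others. It had 176 peaks where the others had 67 to 1812 with a median of 188. The median fold of 31.8 was exceeded by 4 of the others, where the medians of all 29 ran from 11.9 to 55.4. All 4 were among the 18 samples called at the same enrichment minimum of 20. The other 11 were called at a minimum of 10, which admits lower folds, and their medians reached at most 19.6. The median tag count per peak of 22.5 was low, with 27 of the 29 higher in a range of 9 to 305.5, and this measure came closest to a difference (two-sided exact permutation p = 0.2, adjusted p = 0.917). The share of windows in multi-copy sequence, meaning a median of at least 10 copies of their 24-base words, was 19.9% against a median of 4.73% and a range of 0 to 77.6% (exact permutation p = 0.767, adjusted p = 0.978). The GC content averaged 49.9%, with 5 of the others higher (exact permutation p = 0.367, adjusted p = 0.917). None of the 11 measures passed at an adjusted p of 0.05. With 1 sample against 29 the smallest p this design allows is 0.0333, which adjusts to 0.367 if 1 measure alone reaches it, so the test could not have shown a single measure to stand apart. The labels gave the same thresholds as for Zfp738 in 18 of the other samples and lower ones in 11.

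**Figure D5:**
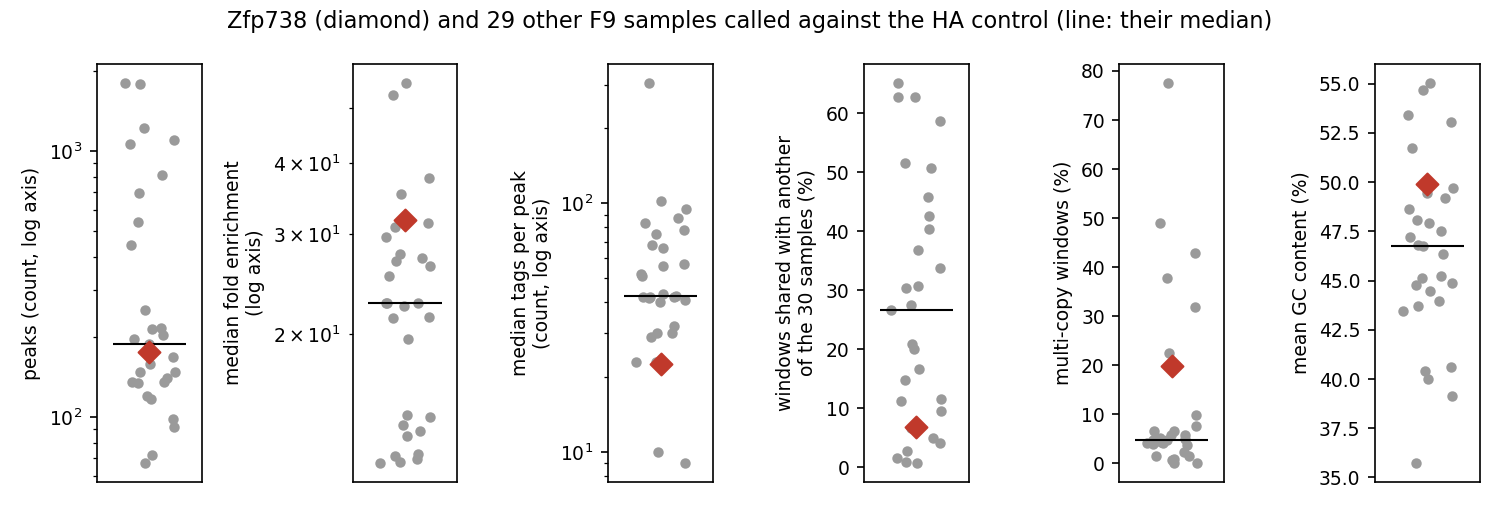
Peak number, median fold, median tags per peak (log axes), share of windows shared within the 30 samples, share of multi-copy windows and mean GC content, for Zfp738 (diamond) and the 29 other samples (1 point each, line at their median). Zfp738 lies within the range of the others in every panel, near the low end for tags with a median of 22.5.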

How the data were processed

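Per the labels, reads were aligned to mm9 with Bowtie (3 bases trimmed from the 5′ end, --best) and peaks were called by the authors with MACS 1.4.2 at p under 1e-10 and enrichment over 20 for Zfp738, and kept if called against both F9 input and the HA control. The deposited table gives, per 200 bp window, the tag count, the MACS score, the fold enrichment and the false discovery rate in percent, all as the authors' values; library depth and duplicate handling are not given in the sources used here. One name (1 of the table, 244 rows) matched no label and was not used. The members and lists were chosen with earlier results of these data known.

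Summits were placed in gencode vM1 on the matching NCBIM37 genome (Python 3.11.15, pysam 0.24.0). Copy number was the median number of mm9 copies of the 24-base words of a window, with a minimum of 10 for multi-copy sequence. Perfect 5-base arrays of 25 bases or more were found by scanning mm9, and similar windows by blastn 2.17.0 (e-value 1e-05, at least 50 bases). ETn LTRs were exact matches of the study's capture probes, and elements were pairs of matches on 1 strand 3 to 10 kb apart. The 11 measures per sample were compared over 30 samples by a two-sided exact permutation test with Benjamini-Hochberg adjustment, which was tested on simulated data. Shares have 95% Wilson intervals (scipy 1.17.1), which cover counting error only. Words, arrays, families and overlaps were described without a test. Named peaks were the 10 highest folds, the 10 highest tag counts, the 5 loci shared with the most proteins, all in coding exons or within 1 kb of a start, those of the largest families (the 3 highest folds where over 10) and genes of the fixed lists within 10 kb; UTR summits, the remaining array peaks and word examples were added after their values were seen. The gene and position of 1 peak that this rule names are not reported here. Alternatives were other thresholds, tag positions, sample sets, distances, overlaps and array rules.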

Additional observations from a re-analysis of the deposited data

How the results depend on the processing

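Of 55 alternatives to 14 results, 49 were counted as unchanged. For the 11 measures this meant the same direction and the same side of the threshold. The side says nothing about their stability, since 1 measure alone could not pass after adjustment (at the smallest p, 0.0526 with 19 samples, 0.0435 with 23 and 0.0333 with 30, it adjusts to 0.579, 0.478 and 0.367). The other results had no test, so no side of a threshold applies to them. The lowest adjusted p was 0.478, for the share near ETn LTRs among C-terminal tags (exact permutation test). Against the mean of the others, the sign turned in 5 cases, none of which had passed the test. With p under 1e-10 and fold over 20 in every sample, the log10 peak number became 0.318 higher and the clustering of own peaks moved below the others (-0.644 percentage points). Over all F9 samples the clustering was lower as well (-1.34). With only samples labelled at those thresholds, the share within 1 kb of a start was 0.729 points higher and the share near ETn LTRs below theirs (-1.21 points). In alternatives chosen after seeing the data, the share of AGAGC arrays with a Zfp738 window was 18.3% for arrays of at least 40 bases and 15.2% when arrays within 500 bp were joined into loci, since several arrays of a locus often shared 1 peak. Families held 57 windows at an e-value of 1e-10 over 100 bases, and 19 of 20 shared pairs remained at 50% overlap. No paired analysis was possible because each protein had 1 sample. With 1 sample, no spread between replicates was available for Zfp738; the weakest peaks lay at the calling thresholds, with a lowest score of 100.3 and a lowest fold of 20.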
